A study of Mus musculus with 3 samples.

Results

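The splicing factors described here are 55 protein-coding genes of 22028 annotated protein-coding genes and 55536 annotated genes. They are the genes whose symbol begins with Srsf and a digit, Hnrnp, Snrp, Sf3a or Sf3b and a digit, or U2af. They comprise 11 SR genes, 20 hnRNP genes, 12 Sm and other snRNP genes, 9 SF3 genes and 3 U2AF genes. In all 60 symbols matched, and 5 of them are processed pseudogenes that were left out. The rule used symbols only and no measured value, but it was set with earlier results of these data known. The symbol rule does not take in genes named Snrnp, such as Snrnp70, nor Ptbp1, Tra2b and other regulators.

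The RNA came from macrophages of the mouse strain C57BL/6J that were differentiated from bone marrow in culture. All cells received 100 ng/ml Lipid A for 12 hours, were kept without it for 12 hours, and received 100 ng/ml Lipid A again for 40 minutes; Lipid A is the membrane anchor of lipopolysaccharide, sensed through Tlr4. RNA of the cytosolic fraction was depleted of ribosomal RNA and sequenced as 3 libraries, biological replicates 1, 2 and 3 of this 1 group, for which sex and age were not recorded. The libraries share a donor label and it is not given whether they came from separate animals, so every p-value measures only the spread between these samples.

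Nuclear splicing removes introns in the spliceosome, a machine of small nuclear RNAs bound by proteins. SR proteins bind exons through RNA recognition motifs and recruit the splicing machinery, hnRNP proteins coat nascent transcripts and often oppose it, the Sm ring and its companions build the snRNPs, SF3 proteins hold the U2 snRNP on the branch point, and U2AF marks the end of the intron. Genes of these proteins are known for making transcripts that keep an intron or carry an early stop codon, and the early stop often comes from a "poison" exon under control of the protein itself. Nonsense-mediated decay, which degrades RNAs whose stop codon lies upstream of an exon junction, acts on translated RNA in the cytosol, while transcripts that keep introns are often held in the nucleus.

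Expected counts on annotated genes were 3.82e+07, 4.63e+07 and 3.87e+07 in replicates 1, 2 and 3, and the splicing factors held 0.452%, 0.453% and 0.496% of them. No pair of libraries matched within counting noise, with a chi-square per degree of freedom of 44.8 to 113, so none was taken for a library deposited again and they were counted as 3 samples. All 8 macrophage markers had a TPM (a level scaled to transcript length and library size) of 1 or more in every library, and their summed TPM was 4071 to 5638. Of 4 neutrophil markers 1 did, and none of the 3 markers of B cells, of T and NK cells, of dendritic cells, of mast cells and eosinophils, of erythroid cells or of stromal and endothelial cells did, with sums of 0.48 TPM or less in every library. The libraries differed in nuclear RNA markers, though not equally in each: Malat1, a nuclear-retained transcript, stood at 1445, 485 and 1726 TPM in replicates 1, 2 and 3, and Neat1 at 87.7, 16.1 and 88.3 TPM. Tug1, another marker listed, moved less, with 25.7, 17.2 and 20.0 TPM.

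Transcripts of 53 of the 55 splicing factors were detected, each at 1 TPM or above in every library, against 41.4% of all protein-coding genes. The hnRNP genes had the highest levels, with a median of the mean TPM of 39.2, followed by SR genes at 21.1, U2AF genes at 19.8, SF3 genes at 12.6 and Sm and snRNP genes at 11.6. The exceptions were Srsf12, an SR gene, and Snrpn, which encodes a close relative of the Sm protein of Snrpb. Srsf12 had 0, 1 and 1 expected counts and Snrpn had 0 in each library, where 3 counts, the upper limit that a count of 0 allows, are 0.0785, 0.0648 and 0.0775 CPM, the count scaled to library size; such limits cover counting error only. In bulk RNA fewer cells of a type and less RNA per cell cannot be told apart. Nuclear protein-coding genes held 33.3%, 28.1% and 27.7% of all TPM in replicates 1, 2 and 3, so TPM of 1 gene also moves with the rest of the library. Neighbours in the order of levels had ranges that did not overlap in 4 of 10 SR pairs, 7 of 19 hnRNP pairs, 6 of 11 Sm and snRNP pairs, 4 of 8 SF3 pairs and 1 of 2 U2AF pairs.

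**Figure D1:**
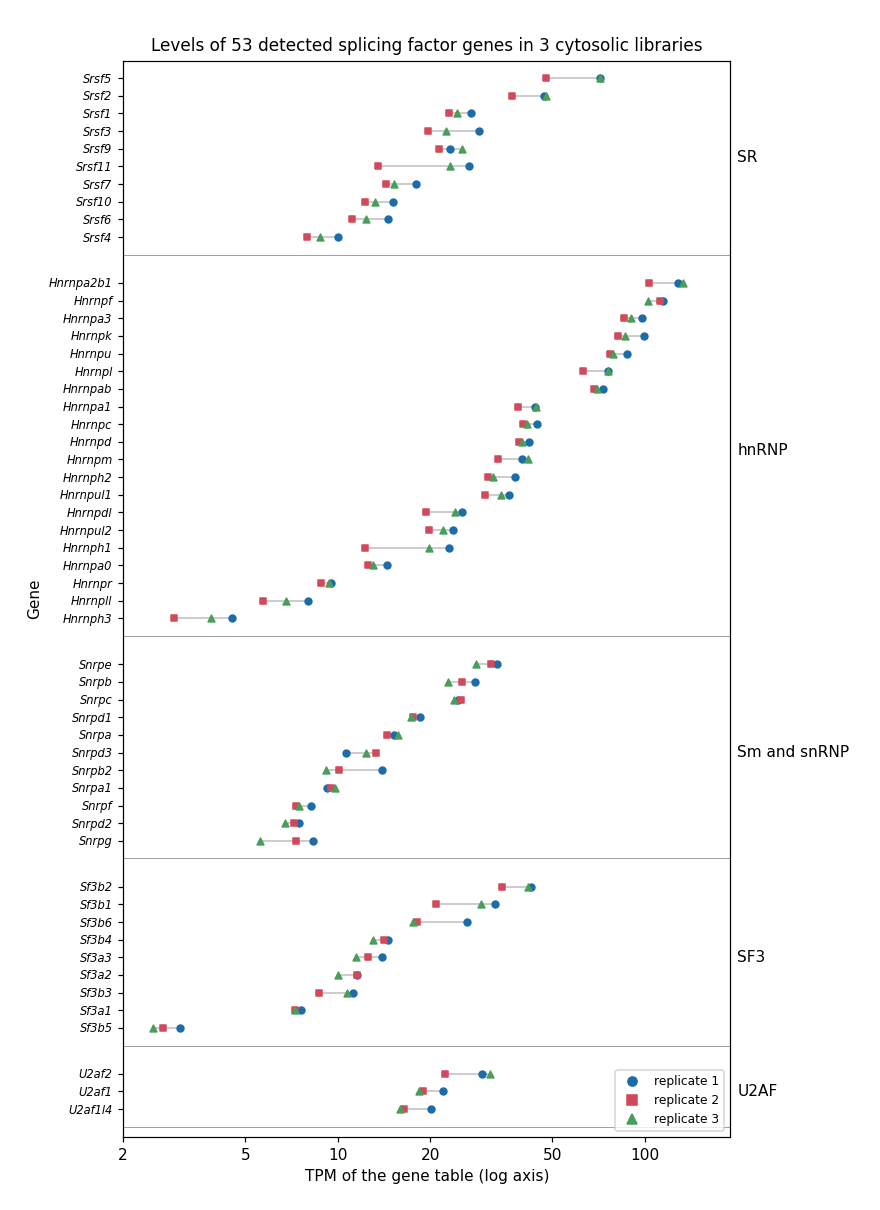
TPM of the gene table (log axis) for the 53 detected splicing factor genes, grouped by protein class and ordered by mean; each marker is a library and the grey line spans the 3 libraries. Hnrnpa2b1 leads at 104 to 133 TPM and Sf3b5 is lowest at 2.50 to 3.06 TPM.

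Among SR genes Srsf5 (mm10, chr12:80945504-80950507, plus strand) was the most abundant, with 71.5, 47.8 and 71.5 TPM in replicates 1, 2 and 3. Srsf2 had 46.8, 37.0 and 47.6 TPM, and Srsf1, the founding SR protein, had 27.2, 23.1 and 24.5 TPM. The lowest value of Srsf5 was just above the highest of Srsf2, and all 3 values of Srsf2 were above all of Srsf1. These levels sum all transcripts of a gene. Over coding transcripts alone Srsf2 had 22.35, 16.27 and 25.34 TPM and Srsf1 had 22.44, 19.46 and 21.88 TPM, so their ranges overlapped. Srsf5 stayed above both, with 44.69, 37.95 and 48.10 TPM. Srsf3, Srsf9 and Srsf11 followed Srsf1 with means of 23.6 ± 4.74, 23.3 ± 2.03 and 21.1 ± 6.83 TPM (SD, n = 3), and the ranges of neighbours in this stretch overlapped. The 2 lowest detected SR genes were Srsf6 with 14.6, 11.1 and 12.4 TPM and Srsf4 with 10.01, 7.92 and 8.73 TPM. These ranges were separate.

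Among hnRNP genes Hnrnpa2b1 (mm10, chr6:51460932-51469894, minus strand) had 128, 104 and 133 TPM in replicates 1, 2 and 3, the highest level of any splicing factor here and rank 379 among protein-coding genes. Hnrnpf had 115, 112 and 102 TPM, and its range overlapped that of Hnrnpa2b1. The A/B group protein gene Hnrnpa3 had 98.2, 85.8 and 90.3 TPM, but the read-based table, which was made without an alignment file, put it lower relative to other genes by 1.30 on the log2 scale. The other 52 detected members lay within 0.5 of the gene table on that scale. Hnrnpk, Hnrnpu, Hnrnpl and Hnrnpab followed with means of 89.3, 80.9, 71.6 and 70.4 TPM, and then a step to Hnrnpa1 at 43.9, 38.5 and 44.2 TPM separated these 7 genes from the other 13. Over coding transcripts alone Hnrnpu had 15.97, 13.38 and 14.61 TPM, below Hnrnpa1 at 22.75, 23.96 and 24.25, while the others of these 7 stayed above Hnrnpa1. In the read-based table Hnrnpa3 averaged 14.9 TPM, near Hnrnpa1 at 14.7. At the low end Hnrnpll, a relative of Hnrnpl known for CD45 exon choice in lymphocytes, had 8.01, 5.69 and 6.79 TPM. Hnrnph3 had 4.53, 2.93 and 3.86 TPM, and the ranges of this pair were separate.

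Genes of the Sm ring, which all spliceosomal snRNPs except U6 carry, did not have equal levels. Snrpe had 33.0, 31.6 and 28.2 TPM in replicates 1, 2 and 3, and Snrpb had 27.9, 25.4 and 22.9 TPM. Snrpd1 and Snrpd3 averaged 17.8 ± 0.632 and 12.1 ± 1.38 TPM, and Snrpf, Snrpd2 and Snrpg averaged 7.64 ± 0.443, 7.12 ± 0.379 and 7.07 ± 1.38 TPM (SD, n = 3). Snrpe and Snrpb were therefore above the ranges of Snrpd1, Snrpd3, Snrpf, Snrpd2 and Snrpg. Of the proteins particular to U1, Snrpc had 24.7, 25.2 and 23.9 TPM and Snrpa had 15.2, 14.5 and 15.7 TPM, while the U2 proteins Snrpb2 and Snrpa1 averaged 11.0 ± 2.53 and 9.50 ± 0.281 TPM (SD, n = 3).

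Among SF3 genes Sf3b2 had 42.5, 34.3 and 41.5 TPM in replicates 1, 2 and 3, and Sf3b1, the large subunit that closes on the branch point, had 32.6, 20.9 and 29.2 TPM. Sf3b6, whose protein touches the branch point adenosine, had 26.4, 18.1 and 17.5 TPM. The small SF3b subunit gene Sf3b5 was lowest with 3.06, 2.69 and 2.50 TPM, and the scaffold gene Sf3a1 was next with 7.60, 7.24 and 7.24 TPM. U2af2, whose protein reads the polypyrimidine tract, had 29.5, 22.3 and 31.4 TPM. U2af1, whose protein reads the AG that ends the intron, had 22.03, 18.96 and 18.43 TPM, and its paralog U2af1l4 had 20.1, 16.4 and 16.0 TPM. The range of U2af2 was just above that of U2af1, and the ranges of U2af1 and U2af1l4 overlapped.

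In 14 of 15 pairs of splicing factors, most of them paralogs, the log2 ratio of levels (TPM plus 1) kept its sign in all 3 libraries; the smallest exact sign permutation p that 3 libraries allow is 0.25, so no pair was tested. The 14 include Snrpb with Snrpn, for which no ratio is given because Snrpn had no counts. Hnrnpl exceeded Hnrnpll by 3.10, 3.26 and 3.30 on the log2 scale in replicates 1, 2 and 3, and Hnrnpa2b1 exceeded Hnrnpa1 by 1.53, 1.40 and 1.57. Hnrnpr was below Hnrnpu, to which it is not closely related, at -3.07, -2.99 and -2.94. These levels sum all transcripts of a gene, and most of the TPM of Hnrnpu was in a noncoding transcript, described below. Over coding transcripts alone the gap was narrower, with 9.38, 8.81 and 9.12 TPM for Hnrnpr and 15.97, 13.38 and 14.61 TPM for Hnrnpu. The ratios of the other pairs are over all transcripts only. Srsf5 exceeded Srsf6 by 2.22 ± 0.21 (SD, n = 3), Sf3b1 exceeded Sf3a1 by 1.75 ± 0.30, and Hnrnpd exceeded Hnrnpdl by 0.79 ± 0.16. Smaller ratios were those of Srsf3 over Srsf7 at 0.53 ± 0.11, Hnrnpul1 over Hnrnpul2 at 0.59 ± 0.01, U2af2 over U2af1 at 0.46 ± 0.26 and U2af1 over U2af1l4 at 0.17 ± 0.04. Srsf4 was below Srsf6 at -0.47 ± 0.03 and Hnrnph1 below Hnrnph2 at -0.87 ± 0.34. Over coding transcripts alone the gap of the latter pair was wider, with 8.04, 6.12 and 7.52 TPM for Hnrnph1 and 37.8, 30.8 and 32.1 TPM for Hnrnph2. Snrpa over Snrpb2 was 0.44 ± 0.30 here but -0.13 in the read-based table. Over coding transcripts Snrpa had 9.37, 10.56 and 11.34 TPM and Snrpb2 had 10.44, 9.51 and 7.81 TPM, so Snrpa was lower in replicate 1. Srsf1 over Srsf9 was 0.22, 0.11 and -0.05, so their order was not the same in every library.

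Counts normalized for library composition (TMM, edgeR) varied little between libraries for most splicing factors. The median SD of log2 CPM was 0.106 for the 53 members that passed the filter on low counts, against 0.137 for 11199 protein-coding genes that passed it. The largest spread was that of Hnrnph1, with 5.71, 5.06 and 5.74 log2 CPM in replicates 1, 2 and 3, followed by Srsf11 with 6.15, 5.51 and 6.18. Srsf5 had 7.12, 6.76 and 7.34 and Srsf2 had 6.16, 5.91 and 6.47. Replicate 2 was the lowest library in each of these 4 genes. Snrpd3, the fifth, went the other way with 3.71, 4.15 and 3.86. The smallest SD values were those of Hnrnph2 (0.0242), Hnrnpa0 (0.0337) and Hnrnpa3 (0.0399). Replicate 2 was the lowest library for 16 of the 53 members, against 30.4% of all genes. By class these were 7 of 10 SR genes, 6 of 20 hnRNP genes, 2 of 9 SF3 genes, 1 of 3 U2AF genes and 0 of 11 Sm and snRNP genes.

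Annotated transcripts of these genes fall into coding transcripts, retained-intron transcripts, decay transcripts (annotated as targets of nonsense-mediated decay) and processed transcripts without an open reading frame. Of the summed TPM of the splicing factors, decay transcripts held 9.63%, 10.5% and 8.98% in replicates 1, 2 and 3, against 1.76%, 1.76% and 1.73% for all nuclear protein-coding genes. Retained-intron transcripts held 8.87%, 3.55% and 8.70%, against 4.70%, 3.45% and 4.93%. Coding transcripts held 79.0%, 84.7% and 79.9%, against 91.1%, 92.5% and 90.9%. The decay share of the splicing factors was above that of all genes in every library, while the retained-intron shares came close to each other in replicate 2. Genes with no annotated transcript of a class count as 0 for it in these sums. Of the 55 splicing factors, 27 have an annotated decay transcript and 41 a retained-intron transcript. The part of annotation in these differences was not tested, and shares among genes with such transcripts are given below. Hnrnpu alone contributed a mean of 61.9 TPM to the decay sum.

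**Figure D2:**
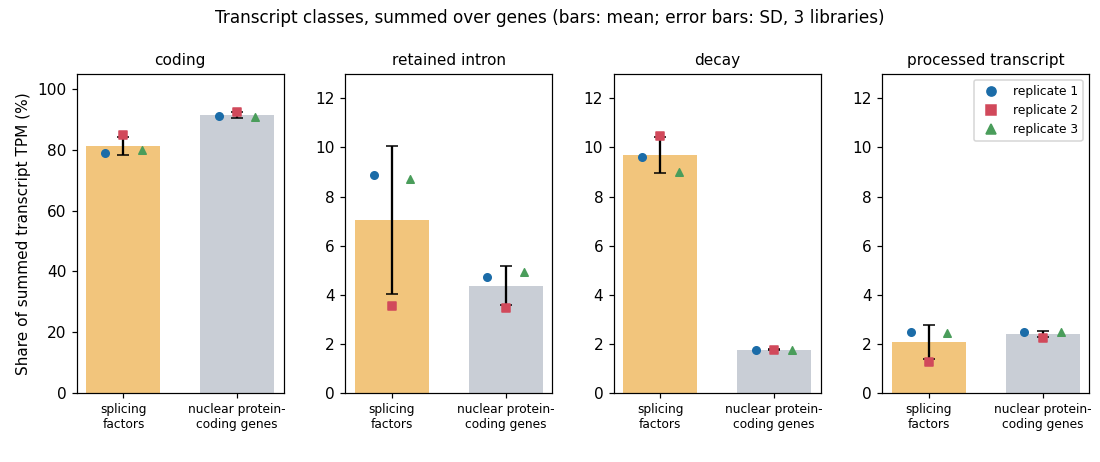
Share of summed transcript TPM in each annotated transcript class for the 55 splicing factors (left bar) and all nuclear protein-coding genes (right bar); bars are the mean of 3 libraries, error bars the SD and markers the libraries, and the coding panel has its own scale. Decay transcripts average 9.69% in splicing factors and 1.75% in all genes, and the replicate 2 marker is the lowest in the retained-intron panel.

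Decay transcripts are annotated for 27 splicing factors, and the leading one of each gene, the only one examined for structure, holds a stop codon followed by at least 1 exon junction. From the stop to the last junction the leading decay transcript of each gene runs 80 to 856 bases, with a median of 367. In 22 of the 27 the stop differs from that of the leading coding transcript, and in 5 it is the same stop with junctions added after it. The exon that holds the stop is absent from the coding transcript in 12 genes, overlaps one of its exons in 4 and is one of its exons in 11. The 12 are Srsf3, Srsf4, Srsf6, Srsf7, Srsf9, Srsf11, Hnrnpl, Hnrnpll, Snrpa, Snrpb, Sf3b1 and U2af2. Median decay share was 3.48% in these 12, and it was 43.7% in the 5 genes that keep their stop.

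The median share of decay transcripts per gene was 4.51% in the 27 splicing factors, against 2.83% in 2919 protein-coding genes with such transcripts. By library it was 4.47%, 6.50% and 5.25% in replicates 1, 2 and 3, against 2.66%, 2.22% and 2.82% in all genes. By shares of expected counts the library medians were 3.35%, 2.45% and 2.89% in splicing factors, against 1.30%, 1.05% and 1.29% in all genes, so replicate 2 was the highest library for splicing factors by TPM and the lowest by counts. Medians by class were 18.1% for 10 hnRNP genes, 4.05% for 9 SR genes, 3.70% for 3 U2AF genes and 0.761% for 4 Sm and snRNP genes, and the 1 SF3 gene, Sf3b1, had 4.51%. These class values are shares of TPM, and by expected counts Sf3b1 had 0.342%. The read-based table gave higher medians, 8.48% for the splicing factors and 4.30% for 2551 genes.

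**Figure D3:**
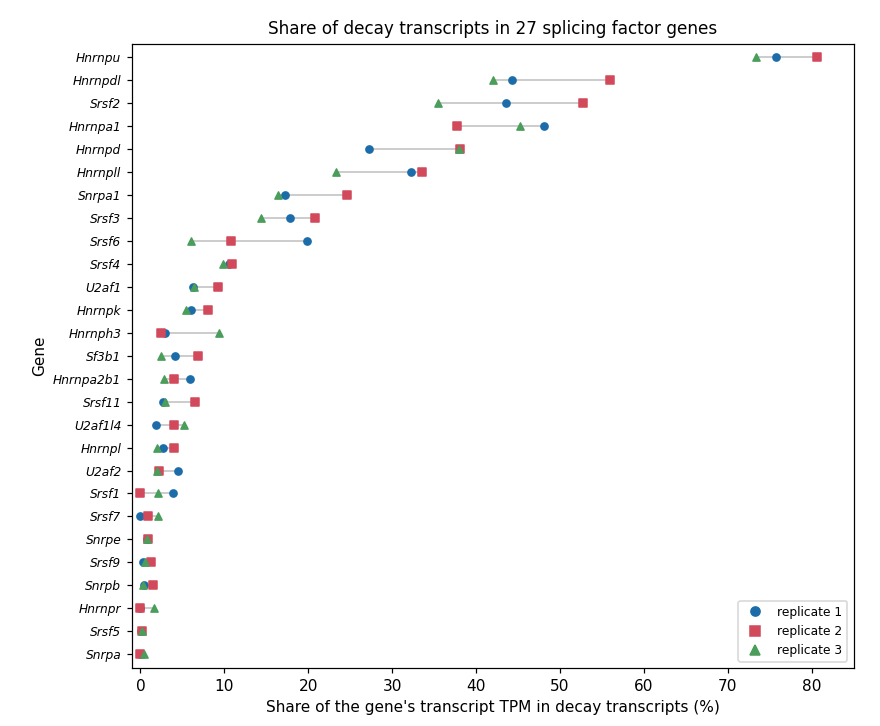
Share of each gene's transcript TPM in decay transcripts (%) for the 27 splicing factors with such transcripts, ordered by mean; each marker is a library and the grey line spans the 3. Hnrnpu stands at 73.3 to 80.7%, and 6 genes have means between 29.7 and 76.6%.

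Hnrnpu (mm10, chr1:178321108-178337797, minus strand), whose protein binds the nuclear scaffold, had most of its TPM in a decay transcript. Decay transcripts held 66.1, 62.0 and 57.8 TPM in replicates 1, 2 and 3, and coding transcripts held 16.0, 13.4 and 14.6 TPM. In every library the decay share was at least 73.3%, and the read-based table gave 69.6%, 81.5% and 66.7%. The coding transcript Hnrnpu-201 has 7640 bases and the decay transcript Hnrnpu-206 has 2844, so the shares of expected counts were less uneven, at 58.0%, 61.6% and 56.1% for decay transcripts and 39.6%, 37.6% and 40.3% for coding transcripts. The authors' interval for Hnrnpu-206 was 63.0 to 66.1 TPM in replicate 1, 59.7 to 62.3 in replicate 2 and 55.1 to 57.9 in replicate 3. Its open reading frame of 2382 bases is close in length to the 2403 bases of Hnrnpu-201 and ends in an exon that overlaps an exon of Hnrnpu-201, with 3 junctions after it. The last 30 bases of that reading frame (GENCODE M21, mm10, chr1:178325281-178325310, minus strand) are shown because they carry the stop, in capitals, that sets this transcript apart.
Hnrnpu-206: gtccatgtgaatgtgctgtgtgaagagTAA

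In 4 genes the leading decay transcript uses the stop codon of the coding protein and differs after it. All decay transcripts of each of these genes together held some of the larger decay shares here. Hnrnpdl, a paralog of the AU-rich element binding gene Hnrnpd, had 44.3%, 56.0% and 42.0% of its TPM in decay transcripts in replicates 1, 2 and 3. Srsf2 had 43.6%, 52.8% and 35.5%, Hnrnpa1 had 48.2%, 37.8% and 45.2%, and Hnrnpd had 27.2%, 38.1% and 38.0%. The fifth gene with a shared stop, Hnrnpa2b1, had 5.94%, 4.05% and 2.81%. The leading transcripts, those with the shared stop, held only part of these sums, except in Srsf2, where Srsf2-204 held all. Hnrnpdl-201 held 25.93%, 28.11% and 17.98% of its gene, and Hnrnpa1-203 held 42.46%, 35.52% and 39.22%. Hnrnpd-208 held 25.45%, 34.54% and 36.87%, and Hnrnpa2b1-207 held 3.35%, 1.76% and 1.99%. The structure of the other decay transcripts was not examined. The coding sequence of Hnrnpdl-201 and that of Hnrnpa1-203 are identical to those of the leading coding transcripts, so these 2 decay transcripts differ from them outside the reading frame only. The Srsf2 transcript, Srsf2-204, has 620 bases, with an annotated reading frame of 59, against 1899 bases and a reading frame of 666 for Srsf2-201, and decay transcripts held 16.8%, 22.9% and 12.6% of the expected counts of Srsf2. The ends of these 3 reading frames (GENCODE M21, mm10), with the stop shared with the coding transcript in capitals, lie at chr5:100036125-100036154 on the minus strand, chr15:103243985-103244014 on the plus strand and chr11:116852028-116852057 on the minus strand.
Hnrnpdl-201: aatcaccagaacaattaccagccctacTAA
Hnrnpa1-203: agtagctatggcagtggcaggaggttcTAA
Srsf2-204: ccagaagaagagggagcagtttcttccTAA

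In Srsf3, Srsf4, Srsf6, Srsf7, Srsf9 and Srsf11 the leading decay transcript has its stop in an exon that the coding transcript lacks, known as a poison exon where it is internal. Srsf3 had 17.8%, 20.8% and 14.4% of its TPM in decay transcripts in replicates 1, 2 and 3, and its leading one, Srsf3-201, has a 456-base exon that Srsf3-202 lacks. In Srsf6 the share was 19.8%, 10.8% and 6.06% with a 268-base exon, but the read-based table gave 44.5%, 52.6% and 43.5%, so this value depends on the quantification. Srsf4 had 10.6%, 10.9% and 9.86% in all decay transcripts. Its leading one, Srsf4-204, has the stop in an exon of 188 bases that begins the transcript. It held 9.29%, 9.23% and 8.37%. In Srsf11 the share of all decay transcripts was 2.66%, 6.50% and 2.98%. Srsf7, with a 460-base exon, and Srsf9, with a 358-base exon, had means of 1.00% and 0.706%, and Srsf5 had 0.142%. Decay shares thus ran from 0.142% in Srsf5 to 43.9% in Srsf2 within 1 protein class. The stops in such exons of 4 SR genes are shown with the 27 bases before them (GENCODE M21, mm10, all on the plus strand), at chr17:29039458-29039487, chr2:162932937-162932966, chr4:131884361-131884390 and chr5:115328399-115328428; capitals mark the stop.
Srsf3-201: accatcatgtctcttctcaccaccctcTGA
Srsf6-201: gccatgacgacagcagccttttgccatTAG
Srsf4-204: gtaacccggttgtctcatgccccagctTAG
Srsf9-205: cctgggttggagattacggattcacagTAG

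Added exons with a stop were also present in Hnrnpl, Hnrnpll and Snrpb, all genes for which such an exon is known in mammals as a means of self-regulation or cross-regulation. Hnrnpll had 32.3%, 33.6% and 23.3% of its TPM in decay transcripts in replicates 1, 2 and 3, whereas its more abundant relative Hnrnpl had 2.73%, 3.97% and 2.01%. Snrpb had 0.394%, 1.46% and 0.262%. The same class of transcripts held 17.2%, 24.6% and 16.4% of Snrpa1, 6.26%, 9.23% and 6.35% of U2af1, 4.47%, 2.24% and 1.98% of U2af2 and 4.14%, 6.90% and 2.50% of Sf3b1. By expected counts the mean shares of these genes were 14.6%, 7.27%, 1.46% and 0.342%. The decay transcript Sf3b1-208 has 600 bases and the coding transcript Sf3b1-201 has 6195. Hnrnpl-213 has a 70-base exon, Hnrnpll-203 an 83-base exon and Snrpb-203 a 124-base exon that the coding transcripts lack. Their stops, in capitals, end these sequences (GENCODE M21, mm10), at chr7:28817364-28817393 on the plus strand, chr17:80044976-80045005 on the minus strand and chr2:130176695-130176724 on the minus strand.
Hnrnpl-213: tctttcagaactgtgctaactcactgtTGA
Hnrnpll-203: ctgaaacttcttgaaagaagcccacttTGA
Snrpb-203: tggcctcattacctatttgtaaagctgTAG

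The TPM of decay transcripts was compared with that of coding transcripts in each of 2859 genes with limma (two-sided, Benjamini-Hochberg adjusted over these genes, log2 of summed TPM plus 0.1). Hnrnpu was the 1 splicing factor of 27 called with decay over coding transcripts, against 3.46% of all genes. Its log2 ratio was 2.07 ± 0.17 (SE), with decay above coding in 3 of 3 libraries and an adjusted p of 0.000211 by limma. Coding transcripts exceeded decay transcripts in 22 of 27, against 91.7% of all genes. The other 4 were not called: Hnrnpdl at 0.28 ± 0.21, Srsf2 at -0.15 ± 0.23, Hnrnpll at -0.28 ± 0.21 and Hnrnpa1 at -0.37 ± 0.20 (SE), with limma adjusted p of 0.247, 0.553, 0.240 and 0.144. By the read-based table, 3 members were called with decay over coding, since Hnrnpdl at 0.66 and Hnrnpll at 0.60 joined Hnrnpu, with limma adjusted p of 0.0307 and 0.0321, and Hnrnpa1 at -0.55 was called with coding over decay. Srsf6, called with coding over decay at -2.71 (limma adjusted p of 0.00184), was at 0.22 there and not called, with a limma adjusted p of 0.280. The median log2 ratio was -3.72 in the 27 splicing factors and -4.11 in all 2859 genes.

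**Figure D4:**
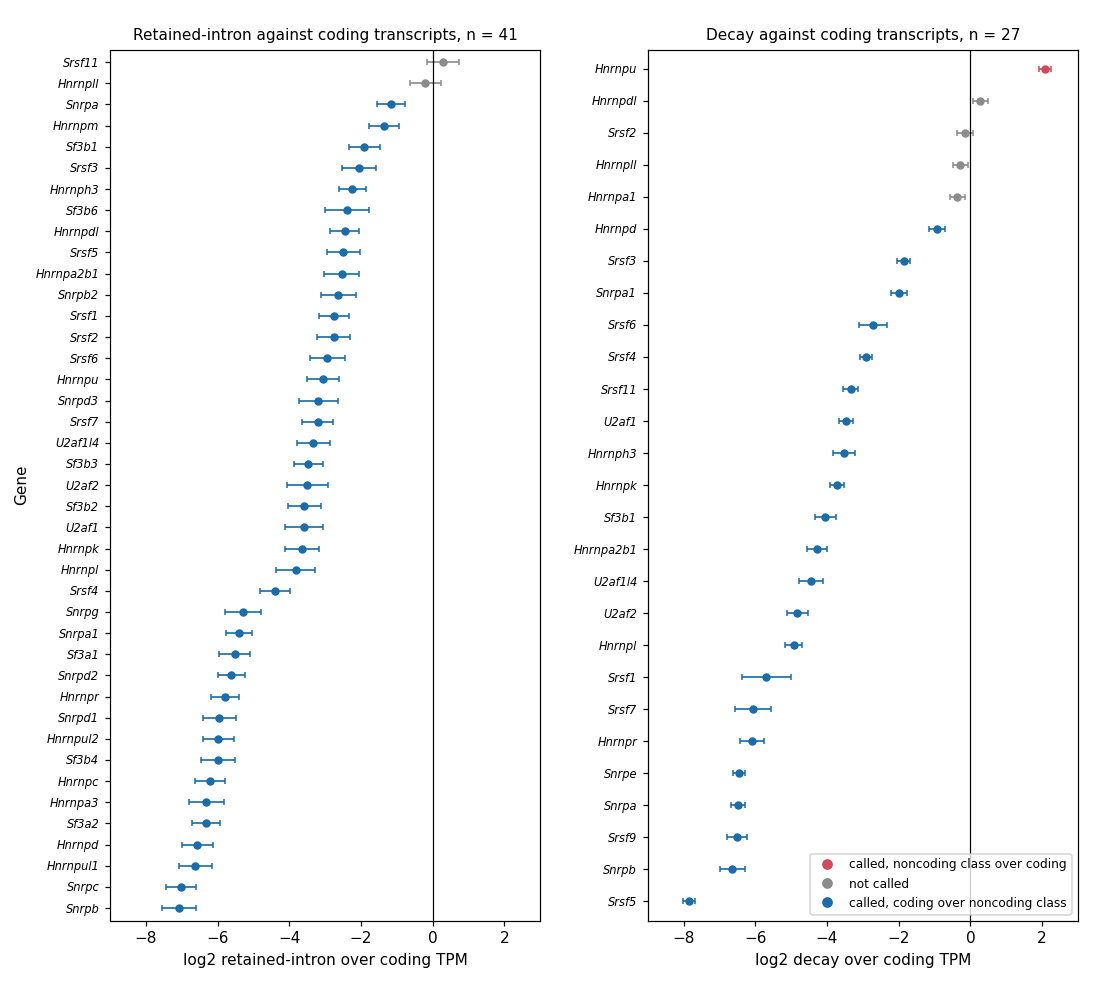
log2 ratio of retained-intron (left) and decay (right) to coding TPM per gene, with points at the mean of 3 libraries, error bars the limma SE, and the vertical line at equal TPM; colours give the call at an adjusted p under 0.05. Hnrnpu at 2.07 is the only red point, and Srsf11, Hnrnpll, Hnrnpdl, Srsf2 and Hnrnpa1 are grey.

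Retained-intron transcripts are annotated for 41 splicing factors, and they held a median of 7.75% of the gene's TPM, against 4.09% in 5904 protein-coding genes. By shares of expected counts the medians were 4.45% and 1.98%. Medians by class were 11.7% for 8 SR genes, 9.01% for 3 U2AF genes, 7.91% for 7 SF3 genes, 4.75% for 14 hnRNP genes and 1.26% for 9 Sm and snRNP genes. Srsf11 (mm10, chr3:158010473-158036639, minus strand) had the highest share, with 63.4%, 37.8% and 57.5% in replicates 1, 2 and 3, spread over 11 annotated retained-intron transcripts. Its retained-intron transcripts had 16.9, 5.11 and 13.3 TPM, against 9.06, 7.54 and 9.15 TPM in coding transcripts, so by TPM coding transcripts led in replicate 2 only. By shares of expected counts retained-intron transcripts of Srsf11 held 53.2%, 22.6% and 47.0% and coding transcripts 46.1%, 76.2% and 52.5%. Coding transcripts then led in replicates 2 and 3, so the order depends on the measure. Hnrnpll had 37.5%, 17.4% and 45.1%, and Snrpa had 38.4%, 27.2% and 27.2%. Hnrnpm had 29.9%, 21.5% and 25.9%, and Sf3b1 had 22.7%, 13.4% and 24.7%. In Snrpa the read-based table gave a mean of 15.8%, and the leading retained-intron transcript, of 509 bases, holds only 60 bases of an intron. In Hnrnpm the read-based mean was 17.4% and the mean share of expected counts was 9.96%. Its leading retained-intron transcript, of 591 bases, holds only 115 bases of an intron.

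**Figure D5:**
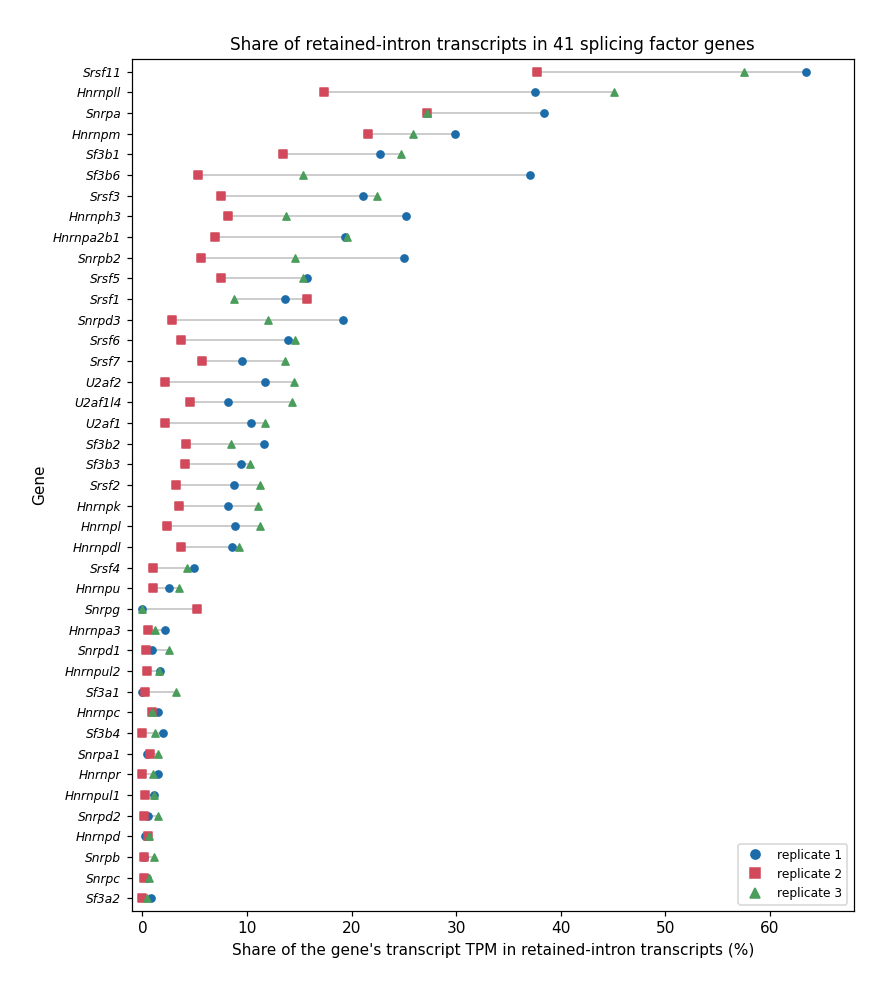
Share of each gene's transcript TPM in retained-intron transcripts (%) for the 41 splicing factors with such transcripts, ordered by mean; each marker is a library and the grey line spans the 3. Srsf11 stands at 37.8 to 63.4%, and the replicate 2 marker is the leftmost in 35 genes.

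The leading retained-intron transcript held sequence of an intron of the leading coding transcript in 40 of 41 genes; the exception was Srsf1. It held a whole intron in 15 genes. These 15 transcripts hold 18 whole introns of 78 to 3580 bases, with a median of 733. Of the other 32 introns, 17 were held from their donor site on without their end. Another 11 were held up to their acceptor site without their start. Transcripts that stop or start inside an intron can give such pieces. The last 4 were held with neither end, and whether these pieces are separate exons was not tested. All 35 donor sites read begin with GT and all 29 acceptor sites end with AG, the ends that the major spliceosome removes. Of the 35 donors 8 read GTAAG and 9 read GTGAG. Whole introns were held by the leading transcripts of Srsf2, Srsf3, Srsf5, Srsf6, Srsf7, Hnrnpa2b1 and Sf3b1, among others.

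Some of these introns are shown with the last 3 exon bases and first 6 intron bases at the donor, and the last 20 intron bases and first 3 exon bases at the acceptor, because they are the sites left unused in these RNAs; capitals mark GT and AG (GENCODE M21, mm10). They are Srsf3 introns 3 and 4 (chr17:29038625-29040774 and chr17:29040814-29041206, plus strand), Srsf2 intron 2 (chr11:116850962-116852020, minus strand), Srsf5 intron 5 (chr12:80947866-80949094, plus strand), Srsf7 intron 3 (chr17:80204388-80205261, minus strand), Hnrnpa2b1 intron 10 (chr6:51463255-51463410, minus strand) and Sf3b1 intron 4 (chr1:55014563-55016375, minus strand). Introns 3 and 4 of Srsf3 lie on both sides of an exon of the coding transcript, and intron 3 is also the one that holds the 456-base exon of the decay transcript. Intron 3 of Srsf7 likewise holds its 460-base exon. Of the 12 genes whose decay stop lies in an exon absent from the coding transcript, 11 have a retained-intron transcript. In 10 of them the leading one holds at least some sequence of the intron in which that exon lies. The same count over all genes was not made. The intron is held whole in Srsf3, Srsf6, Srsf7 and Sf3b1 and in part in Srsf4, Srsf11, Hnrnpl, Hnrnpll, Snrpb and U2af2. In Srsf4 and Snrpb the part held has neither end of the intron. In Snrpb it is 122 bases, close to the 124 bases of the stop exon, and whether it is a separate exon was not tested.
Srsf3 intron 3 donor: cagGTactt
Srsf3 intron 3 acceptor: tttactgtttctgcttctAGatc
Srsf3 intron 4 donor: cagGTaaat
Srsf3 intron 4 acceptor: gaatgtgctgtttgttttAGgtc
Srsf2 intron 2 donor: atgGTaatg
Srsf2 intron 2 acceptor: ctctttcttttcaaacctAGatg
Srsf5 intron 5 donor: cagGTttgt
Srsf5 intron 5 acceptor: cataattgtcttgtgttaAGgat
Srsf7 intron 3 donor: cagGTattt
Srsf7 intron 3 acceptor: ttttctaacttaaaaaatAGgtc
Hnrnpa2b1 intron 10 donor: tggGTaagt
Hnrnpa2b1 intron 10 acceptor: ctttacttctgttgaaacAGgct
Sf3b1 intron 4 donor: atgGTaatt
Sf3b1 intron 4 acceptor: gttgctgttcttttctgcAGgag

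The transcripts that hold these introns were lowest in replicate 2. Srsf3-204, which keeps both introns, had 2.71, 0.64 and 2.71 TPM in replicates 1, 2 and 3. Srsf2-203 had 4.09, 1.20 and 5.37 TPM, and Srsf5-212 had 8.60, 2.92 and 8.53 TPM. Hnrnpa2b1-208 had 10.9, 2.65 and 10.2 TPM, Sf3b1-203 had 4.77, 1.55 and 4.54 TPM, and Srsf7-206 had 1.37, 0.69 and 1.27 TPM. Replicate 2 lay below both of the others in all 6 transcripts. These 6 were picked for display from the 15 that hold a whole intron, and Snrpa1-204, another of the 15, was lowest in replicate 1, with 0.04, 0.07 and 0.15 TPM. Over all genes the retained-intron share was lowest in replicate 2 for 73.3%.

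Across genes, the retained-intron share was lowest in replicate 2 for 35 of 41 splicing factors, against 73.3% of 5904 genes, and highest there for 2, against 7.03%. The median share was 8.73%, 3.24% and 10.2% in replicates 1, 2 and 3 for splicing factors and 4.49%, 1.61% and 5.69% for all genes. Replicate 2 was the lowest for 7 of 8 SR genes, 13 of 14 hnRNP genes, 6 of 7 SF3 genes, 3 of 3 U2AF genes and 6 of 9 Sm and snRNP genes. The 6 genes without this order were Srsf1, Hnrnpd, Sf3a1, Snrpa, Snrpa1 and Snrpg. In the read-based table the count was 37 of 41, against 81.2% of 5210 genes. Malat1 and Neat1, above, were also lowest in replicate 2, as was the nuclear-retained Firre with 3.31, 0.94 and 4.15 TPM; the part of nuclear RNA in these differences was not tested.

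The decay share did not go with the retained-intron share across libraries. It was highest in replicate 2 for 16 of 27 splicing factors, against 26.0% of 2919 genes, and lowest there for 3, against 29.3%. The 16 included Hnrnpu, Hnrnpdl, Srsf2 and Srsf3, and among the 11 others were Hnrnpa1 and Srsf6. The shares of a gene sum to 100%, so they do not vary independently. The count of those highest in replicate 2 was also 16 of 27 by shares of expected counts, against 25.7% of 2919 genes. In the read-based table it was 15 of 27, against 28.3% of 2551 genes. The decay share there was lowest in replicate 2 for 4, against 38.5% of the 2551 genes. The median decay share by expected counts, given above, was nevertheless lowest in replicate 2, so the direction of the median depends on the measure.

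With coding transcripts alone, the spread between libraries changed for single genes. Scaled to the TPM of nuclear protein-coding genes, Srsf11 had 80.1, 48.2 and 83.7 TPM over all transcripts in replicates 1, 2 and 3, but 27.2, 26.9 and 33.1 TPM over coding transcripts. Hnrnph1 likewise had 69.2, 43.8 and 71.9 TPM over all and 24.1, 21.8 and 27.2 TPM over coding transcripts; its other transcripts are processed transcripts, which held 65.1%, 50.2% and 62.2% of its TPM. Srsf5 had 214, 171 and 259 TPM over all and 134, 135 and 174 TPM over coding transcripts. Over coding transcripts replicate 2 was still the lowest library in Srsf11 and Hnrnph1, but closer to replicate 1 than over all transcripts. In Srsf2 the reverse held, with an SD of log2 TPM of 0.20 over all transcripts and 0.33 over coding transcripts. Replicate 2 was lowest for 23 of 52 splicing factors over all transcripts, against 39.0% of 7538 genes, and for 13 of 52 over coding transcripts, against 31.4% of genes.

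Retained-intron transcripts were set against coding transcripts in each of 5814 genes with limma, in the same way as decay transcripts. No splicing factor of 41 was called with retained-intron over coding transcripts, against 1.50% of all genes, and at an unadjusted p under 0.05 the limma count was also 0. Coding transcripts exceeded retained-intron transcripts in 39 of 41, against 93.8% of all genes. Srsf11 at 0.29 ± 0.44 and Hnrnpll at -0.20 ± 0.44 (SE) were not called, with limma adjusted p of 0.533 and 0.664, and in both genes retained-intron TPM was above coding TPM in 2 of 3 libraries. Without replicate 2, Srsf11 was called with retained-intron over coding at 0.72 and a limma adjusted p of 0.0374. Snrpa at -1.15 ± 0.40 and Hnrnpm at -1.36 ± 0.41 (SE) were called with coding over retained-intron, at limma adjusted p of 0.0206 and 0.0113, and neither was called without replicate 1 or without replicate 3. Limma adjusted p was then 0.0998 and 0.120 for Snrpa and 0.1002 and 0.0581 for Hnrnpm. Snrpa was also not called with a pseudocount of 0.01, at a limma adjusted p of 0.0511. Snrpb2, called with coding over retained-intron at -2.63, was at -0.57 in the read-based table and not called, with a limma adjusted p of 0.217; its mean retained-intron share was 15.0% in the alignment-based table and 39.9% in the read-based one. The median log2 ratio was -3.49 in the 41 splicing factors and -3.99 in all 5814 genes.

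A list of 98 other spliceosome and splicing regulator genes, outside the symbol rule, was chosen with earlier results of these data known. Of these, 97 were detected, against 41.4% of all protein-coding genes. The exception was Rbfox2, known as a regulator in neurons and muscle, at 0.03, 0.03 and 0.05 TPM in replicates 1, 2 and 3. Of 77 tested with limma, 1 was called with retained-intron over coding transcripts, the spliceosome gene Isy1 at 0.77 ± 0.32 (SE; limma adjusted p of 0.0473), and 69 with coding over retained-intron. The shares of all genes were 1.50% and 93.8%. Of 43 tested for decay transcripts, 1 was called with decay over coding, the kinase gene Prpf4b at 2.04 ± 0.17 (SE; limma adjusted p of 0.000241), and 39 with coding over decay. Here the shares of all genes were 3.46% and 91.7%. The median log2 ratios of this list were -3.85 for retained-intron and -4.29 for decay transcripts, against -3.49 and -3.72 in the members.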

How the data were processed

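Total RNA of the cytosolic fraction was sequenced in 3 libraries of 1 group, from 1 µg RNA and fragments of 250 to 400 bases per the labels. The deposited gene and transcript tables give expected counts, TPM and FPKM per the file headers, made from transcriptome alignments; FPKM served as an alternative only. The deposited transcript tables also hold bounds of the authors' TPM interval, treated as a score. A second deposited transcript table, called read-based here, gives estimated counts and TPM per the file headers and lists no alignment file among its sources. Programs and versions: not given in the sources used here. Rows that name no gene held 0.356%, 0.125% and 0.104% of expected counts and were left out.

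Gene names, transcript classes and sequences come from GENCODE M21 (mm10). Members and gene lists were chosen with earlier results of these data known. Class TPM per gene was compared as log2(class TPM + 0.1) minus log2(coding TPM + 0.1), for genes whose TPM summed over both classes averaged 1 or more, with a trend, in limma 3.58.1 (R 4.3.3, two-sided, Benjamini-Hochberg over all genes tested, threshold 0.05). The fold is on that scale and understates low genes. Expected counts were rounded and normalized by TMM with a prior count of 1 after filterByExpr (edgeR 4.0.16). The fit was tested on simulated data. Tables were handled with pandas 2.3.3 on Python 3.11.15. Genes were named by rule: in each protein class the 3 highest and 2 lowest detected members and every undetected one, members called with the class over coding, the 5 highest shares in each class test, both genes of each pair, and the 5 largest and 3 smallest SDs; others appear where a small count singles them out. Alternatives were other pseudocounts (0.01 and 1), filters (5 and none), no trend, rescaled TPM, the read-based table, DESeq2 1.42.0 size factors and leaving out each replicate.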

Additional observations from a re-analysis of the deposited data

Results flagged for a closer look

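A signal appeared in a gene outside the comparisons. Snrpert, a processed pseudogene whose symbol fits the naming rule, had 2.69, 1.33 and 0.89 TPM in replicates 1, 2 and 3, a mean of 1.64, from 11, 8 and 4 expected counts. In the read-based table it had 0, 0 and 0.0602 TPM. Whether other genes share its reads was not tested.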

How the results depend on the processing

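No paired analysis was possible because all libraries belong to 1 group, so there are no groups to pair by replicate number; the class tests compare transcript classes within each library. Over all genes, retained-intron transcripts exceeded coding transcripts in 87 genes, in 51 with the filter at 5, in 184 without a filter, and in 52 to 112 with a replicate left out. Among members this count was 0, and 0 to 1 with a replicate left out. Decay transcripts exceeded coding transcripts in 99 genes and in 50 with the filter at 5, and the reverse held in 2623 and 1675; fewer genes are tested under that filter. By the read-based table, 3 members were called with decay over coding in place of 1, the median decay share was 8.48% in place of 4.51%, and the median member level was 8.58 TPM in place of 20.7. The gene table itself gave 69.1 when rescaled over nuclear protein-coding genes. With both tables rescaled, the median log2 of read-based over gene table was 0.038 in 53 members. Ratios that changed sign were retained-intron to coding for Hnrnpll (0.60 read-based, -0.55 to 0.40 with a replicate left out) and Srsf11 (-0.00825 to 0.72 with a replicate left out), decay to coding for Srsf6 and Hnrnpll (0.22 and 0.60 read-based) and Srsf2 (-0.36 to 0.0658 with a replicate left out), and Snrpa over Snrpb2 (-0.13 read-based). The calls of Snrpb2 (read-based) and Snrpa (pseudocount 0.01) for coding over retained-intron were lost. The median retained-intron share was 4.45% by expected counts, against 7.75%. The cause was not tested. The median spread was 0.0682 to 0.112 with a replicate left out, against 0.106. With 3 libraries, depth limits the transcript shares of low genes such as Hnrnph3.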
